A study of Mus musculus with 4 samples.

Results

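Caspases and the regulators of the apoptosome were examined by RNA-seq of denuded mouse oocytes, from which the surrounding cumulus cells had been removed. The group was chosen by gene name and held 7 of the 26631 rows of the expression table: the initiator caspases Casp8, Casp2 and Casp9, the executioner caspase Casp6, the apoptosome scaffold Apaf1, the inhibitor Xiap and its mitochondrial antagonist Diablo. Every member was found once in the table. Donors were C57BL/6 females of wild type genotype aged 24 postnatal days, and the oocytes were cultured with DMSO as control or with HDACi 4b, a compound that blocks the deacetylases HDAC1 and HDAC3. No transgene or mutant allele was involved. Each group had 2 libraries made from pooled oocytes (n = 2), numbered 1 and 2 as in the labels. Whether replicates stem from separate mice or cultures is not stated, and a p-value here measures just the spread of these libraries, which may be technical.

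Caspases are proteases that lie inactive in the cell and cleave their targets after aspartate residues once they are activated. Death receptors at the cell surface activate caspase-8 through the adaptor FADD, whereas mitochondria that release cytochrome c cause APAF1 to assemble into the apoptosome, which activates caspase-9. Both routes converge on the executioner caspases. XIAP binds caspases and blocks them, and DIABLO, released from mitochondria together with cytochrome c, binds XIAP and relieves the block. In the mouse ovary, caspase-2 is known for the death of oocytes, since females without it are born with more of them.

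Values are RPKM (reads divided by exon length and by the library total), which puts genes on a common scale. For most rows this length counts all annotated exons of a gene, so levels compared between genes are approximate. The libraries held 13478189 to 14903547 reads, and 3 reads, the limit that a count of 0 allows, corresponded to between 0.201 and 0.223 CPM, the unit that divides reads by the library total only. Of 12 oocyte markers 11 had a mean of at least 1 RPKM, and their summed level was 20730 and 16370 RPKM under DMSO and 16372 and 17974 RPKM under HDACi 4b. The 13 measured granulosa and cumulus markers summed to 7.98 to 9.96 RPKM per library, the 9 theca and stroma markers to 0.712 to 1.57 RPKM and the 4 endothelial markers to 2.40 to 2.94 RPKM. The 13 measured macrophage and blood markers summed to 131 and 78.5 RPKM under DMSO and to 231.5 and 68.1 RPKM under HDACi 4b (replicates 1 and 2). HDACi 4b replicate 1 was thus the library richest in macrophage transcripts. Ptprc, the common leukocyte antigen, was low but also highest there. It was at 0.0772 and 0.0324 RPKM under DMSO and at 0.205 and 0.0349 RPKM under HDACi 4b. The leading markers were Bcl2l10 (oocyte), Cyp19a1 (granulosa), Dcn (stroma), C1qb (macrophage) and Pecam1 (endothelium). Csf1r, the receptor of macrophage growth factor, was at 5.57 and 1.60 RPKM under DMSO and at 10.7 and 1.64 RPKM under HDACi 4b, and Inha, a granulosa gene, had 1 to 5 reads per library.

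Casp8 stood apart from the other members. This initiator of the death receptor route (ENSMUSG00000026029.14, chromosome 1, 58795374 to 58847503, plus strand, GRCm38) was at 90.5 and 112.7 RPKM under DMSO and at 100.9 and 90.9 RPKM under HDACi 4b (replicates 1 and 2 in this order, as in all pairs of values given here), from 3704 to 4394 reads. The other 6 members ranged from 0.178 to 2.88 RPKM. With a mean of 98.8 RPKM, Casp8 ranked 548 of the 26631 rows and exceeded 94.2% of the 9461 genes that averaged 1 RPKM or more, whose median was 5.26 RPKM. Its level was 39.3 times that of Diablo, 40.05 times that of Apaf1 and 441 times that of Casp6, the lowest. Of the summed RPKM of the 9 caspase genes in the table, Casp8 took 96.7% to 97.1% in each library, while the other 8 together reached 2.69 to 3.81 RPKM.

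The sequence before the start of Casp8 was poorer in G and C than those of the other members, except for 1 of the 3 starts of Xiap. The windows below are the 250 bases before the RefSeq transcription start of Casp8 (chr1:58802252-58802501, plus strand) and, for contrast, of Casp9 (chr4:141793362-141793611, plus strand), the initiator of the mitochondrial route, both on GRCm38.p6. Capitals mark the motifs searched on both strands: the GC box (GGGCGG or CCGCCC), to which SP1 binds, the CCAAT box (CCAAT or ATTGG), the TATA box (TATAAA or TTTATA), the E-box (CANNTG) and the FOXO site (GTAAACA or TGTTTAC).
Casp8: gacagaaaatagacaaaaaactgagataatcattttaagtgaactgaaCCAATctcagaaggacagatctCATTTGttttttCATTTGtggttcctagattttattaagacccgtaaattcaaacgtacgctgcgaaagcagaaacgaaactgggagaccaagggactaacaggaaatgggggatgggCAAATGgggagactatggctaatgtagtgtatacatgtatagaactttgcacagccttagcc
Casp9: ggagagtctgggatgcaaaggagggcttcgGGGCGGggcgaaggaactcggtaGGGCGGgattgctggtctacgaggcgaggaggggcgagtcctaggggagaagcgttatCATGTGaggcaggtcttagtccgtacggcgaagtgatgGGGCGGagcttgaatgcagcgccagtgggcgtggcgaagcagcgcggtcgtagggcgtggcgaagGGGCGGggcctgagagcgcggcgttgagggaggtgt
The window of Casp8 had a GC content of 39.6%, with 11% of all windows lower, and held 5 CpG sites and 0 GC boxes. It held 1 CCAAT box and 3 E-boxes. The window of Casp9 had a GC content of 66.0%, with 25 CpG sites, 4 GC boxes and 1 E-box.

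The windows at the annotated starts of Casp2, Casp6, Apaf1 and Diablo had GC contents of 60.4%, 58.4%, 75.6% and 70.4%, and each held at least 1 GC box. Xiap had 3 annotated starts, with 57.6%, 46.4% and 39.2% GC, of which the first and the second held 1 GC box each. Among 32851 RefSeq windows of this length the median GC content was 52.4%, and 32.7% held a GC box, 33.8% a CCAAT box, 12.4% a TATA box, 66.2% an E-box and 3.17% a FOXO site. A match describes the letters and is not a binding site. GENCODE places the first base of Casp8 upstream of the RefSeq start and lists 4 transcripts, and the start used in these oocytes cannot be read from values per gene.

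**Figure D1:**
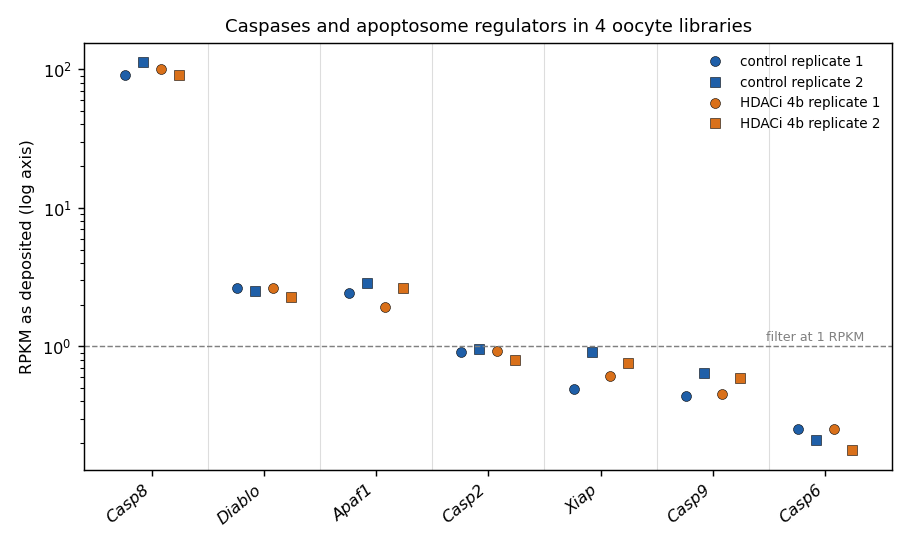
RPKM as deposited (log axis) of the 7 members in the 4 libraries, with circles for replicate 1, squares for replicate 2, blue for control and orange for HDACi 4b; the dashed line is the filter of 1 RPKM. Casp8 lies at 90.5 to 112.7 RPKM in every library, and the other members lie at or below 2.88 RPKM.

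Apaf1 and Diablo formed the next step. Apaf1, the scaffold of the apoptosome (chromosome 10, 90989311 to 91082770, minus strand), was at 2.43 and 2.88 RPKM under DMSO and at 1.92 and 2.63 RPKM under HDACi 4b. HDACi 4b replicate 1 was the lowest library and the groups overlapped. Diablo (chromosome 5, 123509765 to 123524176, minus strand) was at 2.62 and 2.49 RPKM under DMSO and at 2.65 and 2.28 RPKM under HDACi 4b, so that its groups overlapped as well. Diablo overlaps the gene model Gm49027 on the same strand, so that reads of both may be shared and its level is uncertain. The ranges of Diablo and Apaf1 over the 4 libraries overlapped, and their order was therefore not resolved.

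The remaining members lay below 1 RPKM. Casp2 (chromosome 6, 42264985 to 42282508) was at 0.912 and 0.957 RPKM under DMSO and at 0.932 and 0.794 RPKM under HDACi 4b, from 79 to 98 reads. HDACi 4b replicate 2 was the lowest of its libraries, within the counting intervals of the others. Xiap (chromosome X, 42059679 to 42109656) was at 0.493 and 0.917 RPKM under DMSO and at 0.609 and 0.757 RPKM under HDACi 4b. As deposited, both treated libraries of Xiap lay between the controls. After scaling, HDACi 4b replicate 2 was above both controls, at 0.819 RPKM against 0.541 and 0.7965 RPKM.

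Casp9, which the apoptosome activates (chromosome 4, 141793612 to 141815976), was at 0.435 and 0.642 RPKM under DMSO and at 0.452 and 0.587 RPKM under HDACi 4b, from 32 to 45 reads. Its treated libraries also lay between the controls as deposited. After scaling they lay on either side of the controls, at 0.438 and 0.635 RPKM against 0.478 and 0.558 RPKM. At its end Casp9 overlaps Cela2a and Ctrc on the opposite strand, which had 17 to 34 and 1 to 10 reads per library, and the strand setting of the counting is not known. Casp6, an executioner caspase (chromosome 3, 129901425 to 129914103), was the lowest member at 0.253 and 0.213 RPKM under DMSO and at 0.252 and 0.178 RPKM under HDACi 4b. It rested on 14 to 21 reads per library, and the exact 95% Poisson interval of HDACi 4b replicate 1, 0.156 to 0.386 RPKM, covers the other libraries (counting error only). In the order of levels Casp2 overlapped Xiap and Xiap overlapped Casp9, whereas Casp2 lay below Apaf1 and Casp6 lay below Casp9 in all 4 libraries.

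The comparison of HDACi 4b with DMSO asks whether RNA levels in the oocyte differ with the inhibitor when the cumulus cells are absent. Other responses of the oocyte are not covered. Casp8 averaged 101.6 ± 15.7 RPKM under DMSO and 95.9 ± 7.02 RPKM under HDACi 4b (SD, n = 2). Most of this spread was shared with the other genes of a library. After division by the library factors used in the fit (the trimmed mean of ratios over all genes), Casp8 was at 99.4 and 97.9 RPKM under DMSO and at 97.8 and 98.3 RPKM under HDACi 4b. The scaled level of Casp8 in replicate 2 was 0.986 times that in replicate 1 of the controls (95% counting interval 0.943 to 1.03) and 1.01 times in the HDACi 4b pair (0.962 to 1.05), so the replicates differed by no more than counting error. Over the same libraries the summed macrophage and blood markers ranged from 68.1 to 231.5 RPKM. The part of macrophages in the level of Casp8 was not tested.

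**Figure D2:**
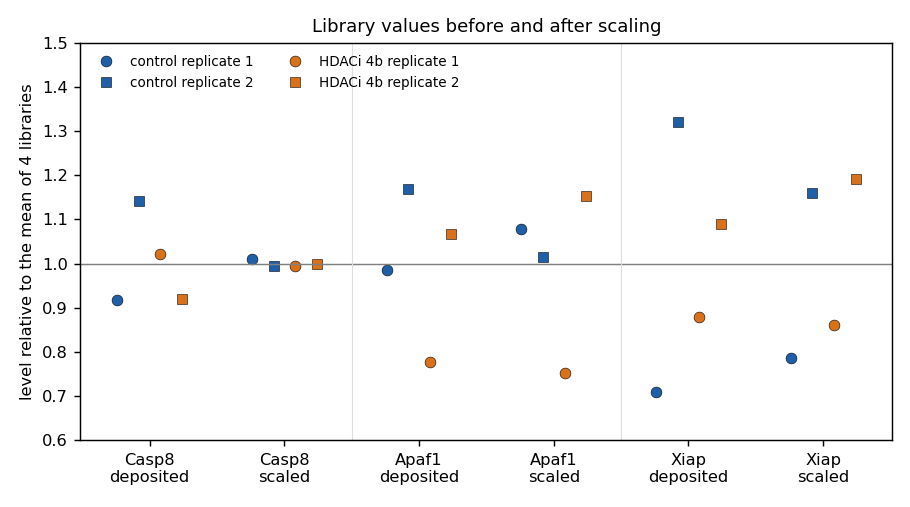
Level of Casp8, Apaf1 and Xiap in each library relative to the mean of the 4 libraries (linear axis that does not start at 0), as deposited and after scaling of the libraries. The Casp8 libraries run from 90.5 to 112.7 RPKM as deposited and from 97.8 to 99.4 RPKM after scaling, while Apaf1 in HDACi 4b replicate 1 and Xiap in both replicates 1 stay low.

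The fold of Casp8 with HDACi 4b was 0.995 with a 95% interval of 0.739 to 1.34 (limma, log2 fold change -0.01, SE 0.18, adjusted p = 1.0). The interval is wider than the spread of Casp8 itself, since limma draws the variance of each gene towards that of genes of similar level. For Diablo the fold was 1.01 (0.688 to 1.47, log2 fold change 0.01, SE 0.23, adjusted p = 1.0). Apaf1 had the largest estimate of the 3 tested members, a fold of 0.896 (0.580 to 1.38, log2 fold change -0.16, SE 0.26, adjusted p = 1.0). This estimate rested on HDACi 4b replicate 1: in the HDACi 4b pair the scaled level of Apaf1 in replicate 2 was 1.53 times that in replicate 1 (counting interval 1.30 to 1.81), and without replicate 1 the log2 fold change was 0.14.

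In all, 3 of the 7 members passed the filter of 1 RPKM and 0 of the 3 were called at a Benjamini-Hochberg adjusted p under 0.05, against 0% of the 9461 tested genes. At an unadjusted p under 0.05, 2.83% of the tested genes (268) and 0 of the 3 members passed. limma-voom on the recovered reads called 0% of the genes, with 2.35% (222) at an unadjusted p under 0.05. The 3 tested members had a median log2 fold change of -0.01 beside -0.001 over all genes tested. For each of the 3 the 95% interval lay within 2-fold in either direction, as for 81.2% of the tested genes.

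The 4 members under the filter were taken from the same fit without a filter, in which 0% of the 26631 rows were called and 3.1% had an unadjusted p under 0.05. None of the 4 passed, with an adjusted p of 1.0 in limma for each. The fold was 0.969 for Casp2 (95% interval 0.570 to 1.65), 1.05 for Xiap (0.535 to 2.07), 1.02 for Casp9 (0.502 to 2.07) and 0.968 for Casp6 (0.418 to 2.24). A 2-fold rise of Xiap, Casp9 or Casp6 and a 2-fold fall of Casp6 were within these intervals, while the interval of Casp2 lay within 2-fold, as for 41% of all rows. After scaling, the groups overlapped for all 7 members. They did not overlap for 28.1% of the tested genes and 24% of all rows, and as deposited for 21.3% of all rows.

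**Figure D3:**
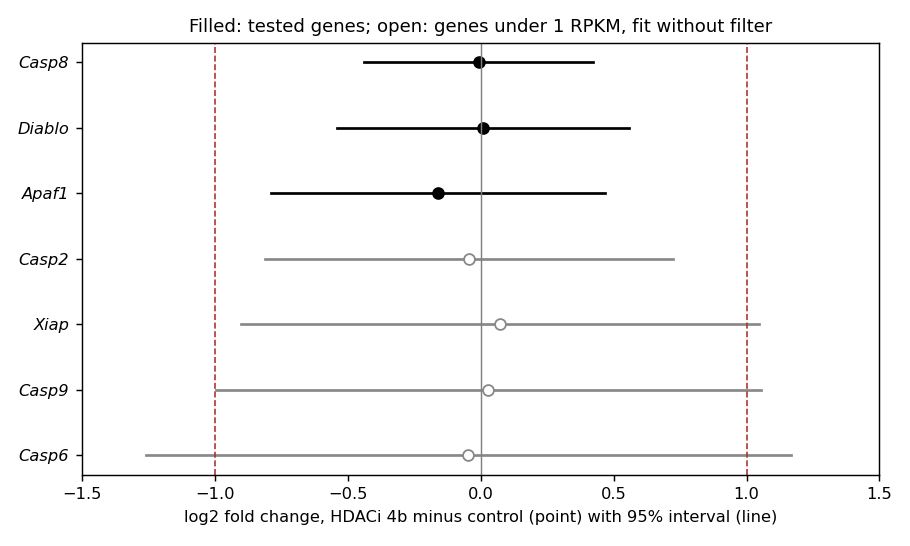
Log2 fold change of each member with HDACi 4b against control (points) and its 95% interval from limma (lines); filled points are the 3 tested members and open points the 4 members under 1 RPKM, from the fit without a filter. The dashed lines mark 2-fold in either direction. All 7 estimates lie between -0.16 and 0.07, and the intervals of Xiap, Casp9 and Casp6 cross a dashed line.

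The spread between replicates differed among the members. For Casp2, Casp9 and Casp6 the counting intervals of the ratio of the replicates included 1 in both groups. Xiap was higher in replicate 2 in both groups, 1.47 times after scaling in the controls (counting interval 1.08 to 2.02) and 1.39 times with HDACi 4b (1.03 to 1.87). The numbers do not mark a shared mouse or day in the labels. Diablo was lower in control replicate 2, at 0.752 times control replicate 1 (0.627 to 0.903).

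Ratios of members within a library do not depend on the scaling of the libraries. Xiap exceeded Casp9, the caspase it blocks in the mitochondrial route, in every library, by 1.13 and 1.43 times in the controls and 1.35 and 1.29 times with HDACi 4b. The counting intervals of Xiap and Casp9 overlapped in every library, as with 0.381 to 0.627 and 0.298 to 0.615 RPKM in control replicate 1. The ratio of Apaf1 to Casp9 was 5.58 and 4.49 in the controls and 4.24 and 4.48 with HDACi 4b, so that the treated libraries lay below the controls by a margin far smaller than the difference between the controls. Diablo exceeded Xiap 5.32 and 2.72 times in the controls and 4.34 and 3.02 times with HDACi 4b. Casp8 exceeded Casp9 208 and 175 times in the controls and 223 and 155 times with HDACi 4b. Apart from Apaf1 to Casp9, the groups overlapped in each of these ratios.

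The partners of caspase-8 were not as abundant as Casp8. Casp8ap2, which encodes a large nuclear protein that binds caspase-8 and is needed for histone gene expression, was at 23.8 and 29.8 RPKM under DMSO and 28.0 and 27.0 RPKM under HDACi 4b (log2 fold change 0.12, SE 0.16, limma adjusted p = 1.0). Fadd, the adaptor that recruits caspase-8 to death receptors, was at 1.45 and 1.60 RPKM under DMSO and 1.41 and 1.31 RPKM under HDACi 4b. Cflar, the inactive homologue that competes with caspase-8 at the receptor, was at 0.480 and 0.410 RPKM under DMSO and 0.821 and 0.459 RPKM under HDACi 4b. The receptor Fas was at 0.393 and 0.536 RPKM under DMSO and 0.708 and 0.709 RPKM under HDACi 4b, from 10 to 19 reads, so that its groups did not overlap, as in 21.3% of all rows as deposited (limma without a filter, adjusted p = 1.0). Its ligand Fasl had 0 or 1 read in each library.

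Of the 15 genes listed for caspase-8 and the death receptor complex, all 15 were measured, 4 were tested and 0 passed in either direction. Their median log2 fold change was 0.01. Tnfrsf21, death receptor 6, had the smallest p of the 4, with 0.819 and 1.43 RPKM under DMSO and 1.67 and 0.998 RPKM under HDACi 4b (log2 fold change 0.30, SE 0.35, limma adjusted p = 1.0). The groups of Tnfrsf21 overlapped, and its log2 fold change was 0.03 without HDACi 4b replicate 1 and 0.08 without control replicate 1.

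Casp1, the inflammatory caspase of macrophages, was at 0.567 and 0.397 RPKM under DMSO and 1.25 and 0.664 RPKM under HDACi 4b. HDACi 4b replicate 1, the highest library, also had the highest summed macrophage and blood markers, 231.5 RPKM. HDACi 4b replicate 2, the next highest for Casp1, had the lowest sum, 68.1 RPKM. The part of macrophages in the level of Casp1 was not tested. The groups of Casp1 did not overlap, from 8 to 28 reads (limma without a filter, adjusted p = 1.0), which held for 21.3% of all rows as deposited. In bulk RNA, fewer cells of a type and less RNA per cell cannot be told apart. None of the 5 other caspases measured reached the filter.

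**Figure D4:**
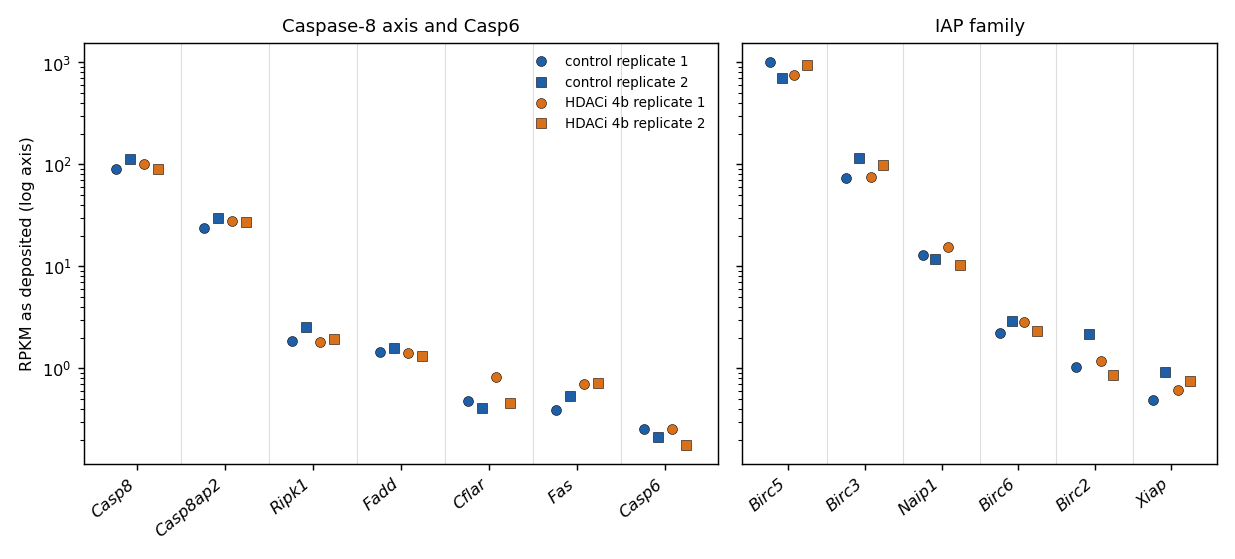
RPKM as deposited (log axis) in the 4 libraries of Casp8 with genes of its route and Casp6 (left) and of Xiap, itself under the filter of 1 RPKM, with the 5 other IAP genes that passed this filter (right). Symbols and colours mark replicate and group. Casp8 and Casp8ap2 lie above 20 RPKM and the other genes on the left below 3 RPKM. Xiap is the lowest of the IAP genes shown in each of the 4 libraries, which follows in part from this choice of genes.

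Among the 9 other IAP genes measured, 5 had a higher mean level than Xiap and 4 a lower one (Birc7, Naip2, Naip5 and Naip6). The IAP family shares the baculoviral repeat domain of XIAP, but its members differ in function. Birc5, or survivin, a subunit of the chromosomal passenger complex that acts at centromeres and the spindle midzone, was at 1015 and 707.5 RPKM under DMSO and 754 and 945 RPKM under HDACi 4b. Its replicates differed more than the groups. Birc3, or cIAP2, a ubiquitin ligase of tumour necrosis factor signalling, was at 74.3 and 114.4 RPKM under DMSO and 74.8 and 99.0 RPKM under HDACi 4b. Of the 9 IAP genes other than Xiap, 5 were tested and 0 passed in either direction, with a median log2 fold change of 0.06. Birc2, or cIAP1, had the smallest p of these, at 1.03 and 2.19 RPKM under DMSO and 1.17 and 0.852 RPKM under HDACi 4b (log2 fold change -0.48, SE 0.36, limma adjusted p = 1.0). Without control replicate 2, the highest library, the log2 fold change of Birc2 was -0.14, and without control replicate 1 it was -0.83.

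Cytochrome c, the ligand of APAF1, was well represented. Cycs, the somatic form, was at 52.9 and 63.0 RPKM under DMSO and 57.2 and 63.0 RPKM under HDACi 4b, and Cyct, the form known from testis, was at 26.1 and 29.9 RPKM under DMSO and 19.8 and 27.8 RPKM under HDACi 4b. Both exceeded Apaf1 and Casp9 in every library. Of the 7 cofactors of the apoptosome and of mitochondrial death 6 were tested and 0 passed, with a median log2 fold change of -0.06. Hspe1 and Hspd1, the mitochondrial chaperonins, were respectively the most abundant of the 6 and the gene with the smallest p. Hspd1 was at 27.7 and 36.2 RPKM under DMSO and 26.7 and 24.5 RPKM under HDACi 4b (log2 fold change -0.24, SE 0.16, limma adjusted p = 1.0), and Hspe1 was at 148 and 125 RPKM against 134 and 162 RPKM.

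The list around caspase-2 had 8 measured genes, of which 5 were tested and 0 passed, with a median log2 fold change of -0.01. In frog eggs caspase-2 is held inactive by a phosphate added by calcium/calmodulin-dependent kinase II and bound by 14-3-3 proteins, and protein phosphatase 1 removes it. Ywhae, a 14-3-3 protein, was at 431 and 449 RPKM under DMSO and 527 and 403 RPKM under HDACi 4b, and Ppp1ca, a catalytic subunit of protein phosphatase 1, at 37.4 and 43.2 RPKM against 35.8 and 27.7 RPKM. Pidd1, the platform on which caspase-2 is activated, had 0 to 3 reads in each library.

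Of the IAP antagonists and partners other than Diablo, 3 were measured and only Siva1 was tested, at 42.1 and 31.3 RPKM under DMSO and 28.3 and 33.3 RPKM under HDACi 4b. Among 11 caspase substrates and nucleases 4 were tested and 0 passed, with a median log2 fold change of 0.07. Rock1, a kinase that caspases cleave to drive membrane blebbing, was the most abundant at 124 and 159 RPKM under DMSO and 141 and 161 RPKM under HDACi 4b. Lmna, the nuclear lamin A and C gene, had the smallest p at 7.98 and 8.13 RPKM under DMSO and 5.83 and 6.18 RPKM under HDACi 4b (log2 fold change -0.35, SE 0.19, limma adjusted p = 1.0). Over all 7 lists, 58 of 62 genes were measured, 25 were tested, and 13 had a log2 fold change above 0 and 12 below 0. Of the 25, 0 had an unadjusted p under 0.05 in limma, beside 2.83% of all tested genes, a share too small for this count to tell them apart. For 23 of the 25 the whole interval was inside 2-fold, beside 81.2% of all tested genes. After scaling the groups did not overlap for 5 of the 25, beside 28.1% of all tested genes, with Casp8ap2 above the controls and Hspd1, Aifm1, Ppp1ca and Lmna below them.

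The genes whose profile over the 4 libraries was most like that of Casp8 were Prdm10, Cpsf4 and Hnrnpdl, with root mean square differences of 0.0039, 0.0040 and 0.0067 in centred log2(RPKM + 0.1) after scaling. Of 7603 protein coding genes compared, 1359 lay within 0.1 of Casp8, so the likeness over 4 libraries marks genes that varied little and singles out few.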

How the data were processed

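RNA of cultured denuded oocytes was sequenced in 4 libraries, 2 with DMSO and 2 with HDACi 4b. The labels gave each library's group and number. The extraction note speaks of ovaries, so markers of other ovarian cells were checked. The authors deposited 1 table of RPKM values, with 1 column per library and 26631 rows. Bowtie 0.12.2 and build mm8 are named by the submitters' processing notes. For the counting tool, strand setting and annotation, nothing was given in the sources used here. Gene positions come from GENCODE M21 (GRCm38) by gene name, and promoter windows are from RefSeq on GRCm38.p6.

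Reads were recovered from the steps in the RPKM values: 22641 rows (85.0%) gave whole reads at the GENCODE exonic length and 3990 from ratios between libraries, with a tolerance of 0.01 reads. Of the members Diablo came from ratios, since its length in the table (6870 bases) differs from that in GENCODE (6166 bases). Counting intervals cover counting error only. Libraries were divided by 0.911 and 1.15 (control replicates 1 and 2) and 1.03 and 0.925 (HDACi 4b replicates 1 and 2), the trimmed means of ratios (30% of ratios and 5% of levels trimmed). limma 3.58.1 in R 4.3.3 was fitted on log2(RPKM + 0.1) for genes averaging 1 RPKM or more, with an intensity trend, two-sided, and Benjamini-Hochberg adjustment over all genes tested. Fold changes are on that scale, on which changes of low genes appear smaller. Levels are as deposited unless called scaled. The fit was also run on simulated reads with the same dispersion for every gene, and the outcome of that run is not used here. With 2 libraries a group the smallest exact permutation p is 0.333, and no such test was run.

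Named were the 7 members, in each list the tested gene with the most RPKM and that with the smallest p, the top marker of each list and the 3 genes most like Casp8. Further genes of the lists were named after their values were seen. The members and lists were chosen with earlier results of these data known. Alternatives were other scalings, limma-voom, other pseudocounts and filters, robust variance, a replicate block, and the omission of each library in turn. Results for some genes of the lists are not reported here.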

Additional observations from a re-analysis of the deposited data

How the results depend on the processing

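None of the members was called under any of 85 alternative estimates (lowest adjusted p = 0.854 in limma). The direction was kept in 71 of them and turned in 14, of which 11 came from leaving out a library. The 71 include fits that could not turn a direction. Robust variance, the replicate block and the filters left every fold change of a member as it was. For Casp2, Xiap, Casp9 and Casp6 the fit without a filter was the main fit itself. With the values as deposited the log2 fold change was -0.034 for Casp9 and -0.056 for Diablo, and with median-of-ratios scaling it was 0.006 for Casp8. Leaving out each library in turn gave ranges of -0.453 to 0.135 for Apaf1, -0.166 to 0.076 for Casp2, -0.251 to 0.158 for Casp6, -0.018 to 0.003 for Casp8, -0.196 to 0.253 for Casp9, -0.187 to 0.208 for Diablo and -0.170 to 0.314 for Xiap. Estimates this close to 0 have no settled sign. The count of genes called over the whole table was 0 to 5 on leaving out a library, with 5 without HDACi 4b replicate 2 and 0 in the other fits. Among the 11 other named genes of the lists, Birc5 turned with the values as deposited (-0.006), and leaving out a library turned Birc5 (-0.366 to 0.492), Hspe1 (-0.101 to 0.474), Rock1 (-0.000 to 0.343), Ywhae (-0.003 to 0.276) and Siva1 (-0.552 to 0.211). The median log2 fold change of all tested genes was -0.07 with the values as deposited.

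With the replicate number as a block, 0 genes were called. In this balanced design the block leaves each fold change as it was, so the direction of the members could not change. The differences of replicate 1 minus replicate 2 in the controls and with HDACi 4b correlated with r = 0.0453 across 9461 genes. Same-numbered libraries thus shared little over the tested genes as a whole. This value does not cover effects limited to few genes, and a shared mouse, day or culture was not tested. With 14 to 45 reads per library, Casp6 and Casp9 are limited by depth.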

Other observations

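Endog, the mitochondrial endonuclease G that can enter the nucleus in cell death without caspases, lay under the filter of 1 RPKM and was noticed after its values were seen. Control replicates 1 and 2 held 2 reads each, whereas HDACi 4b replicates 1 and 2 held 34 and 16 reads. In RPKM this was 0.133 and 0.140 against 2.15 and 1.07, and the groups did not overlap, which held for 21.3% of all rows as deposited. Over the pooled reads, 4 against 50, the scaled ratio was 12.5 with an exact 95% counting interval of 4.59 to 47.7, which covers counting error only. In the fit without a filter the fold was 7.09 (95% interval 3.24 to 15.5), a value that depends on the pseudocount, the unadjusted p was 0.00100 and the adjusted p = 1.0 (limma), so Endog failed the correction over 26631 rows.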
